A study of Mus musculus with 24 samples.

Results

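Differentiation of C2C12 cells in the presence of linoleic acid was followed by comparing the 4 libraries of day 6 with the 4 libraries of day 2 of the same treatment. The libraries were chosen by treatment and day alone, and made up 8 of the 24 libraries of the series. C2C12 is a line of mouse myoblasts, the dividing precursors of muscle fibres. Growth medium held 10% fetal bovine serum, and differentiation was started by a change to 2% horse serum. During differentiation the medium held albumin-bound linoleic acid (LA), an essential polyunsaturated fatty acid, at 100 µM, and collection was at day 2 or at day 6. The 2 other treatments, each with 4 libraries at either day in the same sera, were a vehicle and recombinant mouse ANGPTL4 protein at 10 ng/mL. ANGPTL4 is a secreted inhibitor of lipoprotein lipase. All groups came from this 1 line, and the labels did not say whether libraries came from separate cultures, so that p-values measure the spread between these libraries, which may be technical.

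Myoblasts that differentiate leave the cell cycle under the transcription factors MyoD and myogenin, fuse through the membrane proteins myomaker and myomerger, and build sarcomeres from actin, myosin and the giant proteins titin and nebulin. Embryonic and cardiac isoforms of these proteins are made first and adult fast isoforms later. A share of C2C12 cells stays single and undifferentiated as reserve cells that keep Pax7. Linoleic acid and other long-chain fatty acids are ligands of the PPAR nuclear receptors, whose targets include genes of fatty acid oxidation, lipid droplets and Angptl4 itself.

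Library totals were 9.548 to 25.05 M counts at day 2 and 8.192 to 15.23 M counts at day 6 with LA. The first principal component of the 8 libraries held 60.2% of the variance and parted the days, with day 2 between -28.59 and -22.31 and day 6 between 20.85 and 29.42. Log2 levels correlated at 0.989 to 0.997 among the day 2 libraries, at 0.991 to 0.993 among the day 6 libraries, and at 0.973 to 0.98 between the days. On the second component (11.2%) replicate 3 of day 2, at -20.44, and replicate 4 of day 6, at -14.89, stood apart from the rest. Replicate 4 of day 2 had the smallest total of its group and low levels of small ribosomal and respiratory chain transcripts. Markers of skeletal muscle, such as Myod1, Myog, Myh3 and Acta1, were read in every library, as the label says.

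A change is called here at an adjusted p under 0.05 in edgeR's quasi-likelihood test, log2FC is the log2 fold change of day 6 over day 2 with its approximate standard error (SE), and levels are counts relative to the normalised library total (CPM), given for replicates 1 to 4 in that order. Of 12994 genes tested, 5697 changed between the days under LA, 3006 higher at day 6 (23.1%) and 2691 lower (20.7%). Scaling by library totals alone gave 2597 higher and 3205 lower, so that the majority direction turned. Of the called genes, 406 rose and 233 fell at least 2-fold. The median log2FC of all genes was -0.0071. These shares and this median are the background for the gene lists described here. No share of all genes was taken for the lack of overlap between the days, so that overlap only describes single genes. The lists and members were chosen with earlier results of these data known.

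The 10 genes with the highest fold changes among called genes of at least 5 CPM without overlap between the days ran from log2FC 4.25 to 3.02. They were Cyp2f2, a cytochrome P450 of airway cells, Fxyd6, which belongs to a family of sodium pump regulators, 3425401B19Rik, Dmd (dystrophin), Mybpc2 (fast myosin-binding protein C), Ctsc (the protease cathepsin C), Lum (the matrix proteoglycan lumican), Myot (the Z-disc protein myotilin), C3 (complement component 3) and Tigd4. Both Mybpc2 and Myot are proteins of the sarcomere. The promoters of the first 4 in this order are shown because these transcripts rose most. Each runs from 250 bases before to 50 bases after the annotated start, taken from RefSeq on GRCm38.p6, a build other than that of the counts. Capitals mark CAGCTG, which reads the same on either strand, and CAGGTG, searched on both strands. Both are E-boxes of the kind bound by MyoD and myogenin.

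Cyp2f2, chr7:27119705-27120004, plus strand: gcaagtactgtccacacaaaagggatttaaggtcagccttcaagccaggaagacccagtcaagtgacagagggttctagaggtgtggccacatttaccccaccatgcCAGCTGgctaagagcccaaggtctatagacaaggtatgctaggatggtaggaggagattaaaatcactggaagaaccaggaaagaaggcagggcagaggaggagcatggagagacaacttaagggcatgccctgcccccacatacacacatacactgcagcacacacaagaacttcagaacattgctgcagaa
Fxyd6, chr9:45369935-45370234, plus strand: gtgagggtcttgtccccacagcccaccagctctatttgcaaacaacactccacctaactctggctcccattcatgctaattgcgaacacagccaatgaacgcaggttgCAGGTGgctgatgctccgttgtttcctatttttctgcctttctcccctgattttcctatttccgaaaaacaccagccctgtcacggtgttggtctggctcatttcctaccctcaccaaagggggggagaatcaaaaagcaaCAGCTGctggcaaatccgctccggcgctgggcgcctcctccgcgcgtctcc
3425401B19Rik, chr14:32685223-32685522, minus strand: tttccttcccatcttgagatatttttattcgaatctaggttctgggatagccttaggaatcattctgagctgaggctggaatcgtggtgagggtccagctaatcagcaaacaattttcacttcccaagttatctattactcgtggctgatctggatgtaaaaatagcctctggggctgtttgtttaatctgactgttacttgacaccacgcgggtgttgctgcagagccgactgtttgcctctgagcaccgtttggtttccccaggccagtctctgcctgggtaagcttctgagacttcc
Dmd, chrX:82948620-82948919, plus strand, the first of 2 starts in the table: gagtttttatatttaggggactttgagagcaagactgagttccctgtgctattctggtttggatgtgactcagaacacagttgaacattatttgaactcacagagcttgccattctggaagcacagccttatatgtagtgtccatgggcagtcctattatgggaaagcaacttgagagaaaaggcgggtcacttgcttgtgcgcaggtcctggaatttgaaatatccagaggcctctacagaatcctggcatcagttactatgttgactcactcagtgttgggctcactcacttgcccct

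The Cyp2f2 promoter held 1 CAGCTG, the Fxyd6 promoter held 1 CAGCTG and 1 CAGGTG, and neither motif was in the other two windows. A promoter entry was found for 303 of the 406 genes at least 2-fold higher, and 22.4% of these held CAGCTG and 19.8% held CAGGTG. Of 157 genes with an entry among the 233 at least 2-fold lower, 22.9% held CAGCTG and 24.2% held CAGGTG. Over the 10289 genes tested with an entry the shares were 15.4% and 16.8%. Shares were thus higher among risers and fallers alike than over all genes tested, which was not tested. Over all 32851 entries of the same length they were 16.3% and 20.2%. A match of these letters describes the window and is not a measured binding site.

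Levels of the 4 genes were low at day 2, and the rule that chose them required no overlap between the days. Cyp2f2 had 0.354, 0.454, 0.706 and 0.409 CPM at day 2 and 6.76, 15.5, 6.86 and 9.55 CPM at day 6 (log2FC 4.25 ± 0.383, adjusted p = 4.75e-09). Fxyd6 rose from 0.511, 0.738, 0.588 and 0.409 CPM to 8.35, 7.62, 9.93 and 7.58 CPM (log2FC 3.83 ± 0.195, adjusted p = 1.51e-16). 3425401B19Rik rose from 0.826, 1.48, 1.14 and 1.12 CPM to 12.5, 14.5, 16.8 and 16.7 CPM (log2FC 3.73 ± 0.159, adjusted p = 1.76e-18). The 4 libraries of a day lay close together for Fxyd6, while replicate 2 of day 6 had the highest Cyp2f2 level by a wide gap. Dmd, the gene of dystrophin, which links the actin cytoskeleton to the membrane and matrix, had 2.16, 2.84, 1.88 and 2.96 CPM at day 2 and 32, 33.5, 21.8 and 31.3 CPM at day 6 (log2FC 3.67 ± 0.267, adjusted p = 1.23e-09). Reads from transcript ends do not tell which start a transcript used, so the Dmd value covers every isoform that shares its end.

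**Figure D1:**
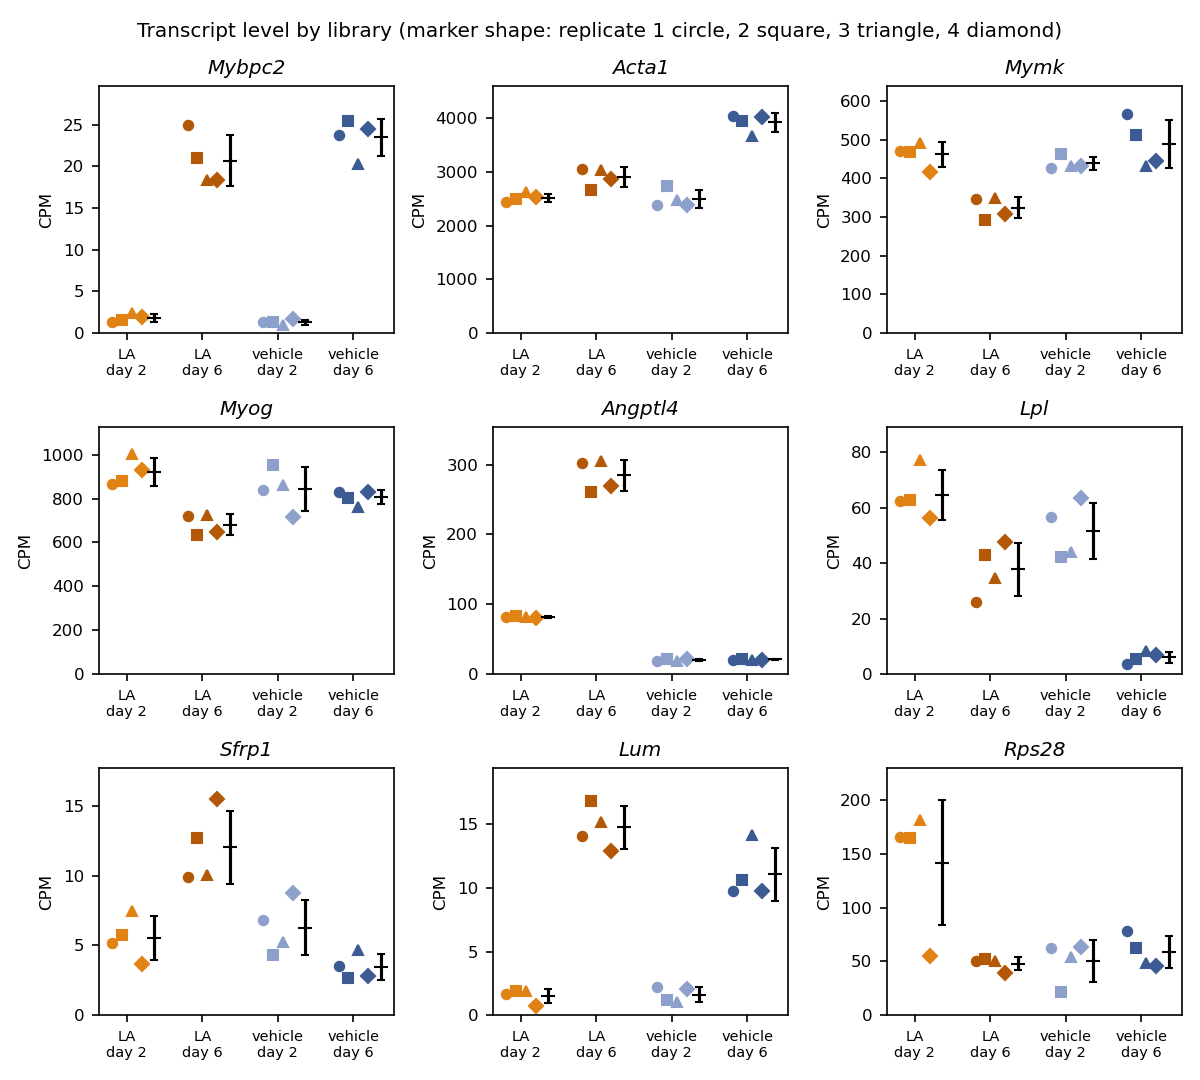
Level in CPM (y axis, linear, from 0) of 9 genes in each library of LA (orange) and vehicle (blue) at day 2 and day 6, with points for libraries, marker shape for the replicate number, and black bars for the mean ± SD of 4. Mybpc2 and Lum rose under both treatments, Angptl4 reached a mean of 284 CPM at day 6 with LA against 20.8 CPM with vehicle, and replicate 4 of LA day 2 had the lowest Rps28 level of its group.

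Sarcomeric myosins rose in part. Of 16 tested, 9 were higher and 4 lower at day 6, with a median log2FC of 0.42. The risers included adult isoforms. Myh4, the heavy chain of the fastest fibres, had 154, 193, 178 and 164 CPM at day 2 and 766, 692, 678 and 767 CPM at day 6 (log2FC 2.08 ± 0.105, adjusted p = 9.92e-13). Myh2, the heavy chain of fast oxidative fibres, rose from 22.3, 29.5, 23.4 and 14.8 CPM to 93.5, 71.2, 91.8 and 82 CPM (log2FC 1.88 ± 0.118, adjusted p = 2.29e-11). Myl2, the regulatory light chain of slow and ventricular muscle, rose from 1.49, 2.1, 2.16 and 1.64 CPM to 13.6, 10.8, 13.1 and 15.1 CPM (log2FC 2.81 ± 0.145, adjusted p = 2.39e-16). Every day 6 library lay above every day 2 library for these 3 genes. Myh3, the embryonic heavy chain, went the other way, with 4363, 4870, 4402 and 4964 CPM at day 2 and 3487, 3240, 3465 and 3520 CPM at day 6 (log2FC -0.44 ± 0.061, adjusted p = 5.50e-07). Myh7, the slow heavy chain, had means of 327 and 295 CPM and was not called (log2FC -0.15 ± 0.0742, adjusted p = 0.11). Adult and embryonic heavy chain genes are close copies of each other, and how reads that fit several genes were counted was not given in the sources used here.

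Thin filament genes rose more often than they fell, 14 higher and 3 lower of 25 tested (median log2FC 0.21). Acta1, the skeletal α-actin, had 2432, 2497, 2620 and 2529 CPM at day 2 and 3052, 2665, 3042 and 2863 CPM at day 6. Its rise was called but small (log2FC 0.21 ± 0.0513, adjusted p = 0.00155). Actc1, the cardiac α-actin that early myotubes also make, fell from 1344, 1446, 1396 and 1389 CPM to 939, 769.7, 899.6 and 784 CPM (log2FC -0.72 ± 0.0556, adjusted p = 3.74e-12). The 2 actins thus moved in opposite directions, each without overlap between the days. Acta2, the smooth muscle actin that myoblasts express, fell from a mean of 2659 ± 85.7 CPM to 1741 ± 54.4 CPM (SD, n = 4, log2FC -0.61, adjusted p = 1.73e-09). Tnnt3, the fast troponin T, rose from 663, 766, 813 and 637 CPM to 962, 854, 897 and 930.3 CPM (log2FC 0.34 ± 0.0723, adjusted p = 0.00036). Actn2, the α-actinin that anchors actin in the Z-disc, rose from 131 ± 10.8 to 214 ± 14.9 CPM (SD, n = 4, log2FC 0.71, adjusted p = 4.93e-09). Neb, the giant ruler protein of the thin filament, overlapped between the days, at 2078, 2358, 1779 and 2414 CPM and 2201, 2031, 1897 and 1963 CPM (log2FC -0.092 ± 0.0968, adjusted p = 0.463).

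Among genes of the thick filament, titin and the M-band, 4 of 13 rose and 2 fell (median log2FC 0.019), so this list as a whole stood near the median of all genes. Its 2 largest changes were myosin-binding proteins C, which lie on the thick filament. Mybpc2, the fast isoform, rose from 1.38, 1.53, 2.39 and 1.94 CPM to 24.9, 21, 18.4 and 18.4 CPM (log2FC 3.52 ± 0.137, adjusted p = 1.60e-19). Mybpc1, the slow isoform, rose from 49.4, 63, 57.3 and 57.8 CPM to 287, 256, 304 and 288 CPM (log2FC 2.32 ± 0.0955, adjusted p = 3.74e-15). Both rose without overlap between the days, which the rule for the highest changes required of Mybpc2. Ttn (titin) was not called, with 12670, 13550, 6399 and 12760 CPM at day 2 and 10250, 10440, 8004 and 7374 CPM at day 6 (log2FC -0.33 ± 0.221, adjusted p = 0.239). Replicate 3 of day 2 lay far below the other day 2 libraries, which were above all 4 libraries of day 6.

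Z-disc genes were the contractile list with the most risers, 17 higher and 4 lower of 24 (median log2FC 0.27). Myot, which cross-links actin at the Z-disc, rose from 5.54, 6.53, 5.92 and 6.54 CPM to 53.8, 48.6, 60.04 and 45 CPM (log2FC 3.1 ± 0.1, adjusted p = 1.10e-21). Xirp2, an actin-binding Xin-repeat protein, rose from 2.12, 5.96, 3.77 and 6.03 CPM to 23.7, 26.4, 17.9 and 25.3 CPM (log2FC 2.51 ± 0.322, adjusted p = 3.88e-06). Tcap (telethonin), which caps titin at the Z-disc, rose from 15.6, 17.5, 18.7 and 19.2 CPM to 48.4, 38.8, 54.3 and 34.6 CPM (log2FC 1.32 ± 0.0955, adjusted p = 2.74e-12). None of the 3 overlapped between the days, which the rule for the highest changes required of Myot. Myoz1, a calcineurin-binding Z-disc protein of fast fibres, rose from 1.49 ± 0.333 to 5.04 ± 1.25 CPM (SD, n = 4, log2FC 1.75, adjusted p = 8.05e-09). Csrp3, the muscle LIM protein, rose only from 23.4 to 28.1 CPM (log2FC 0.25 ± 0.0889, adjusted p = 0.0214), and the call was lost without replicate 1 or replicate 4 of day 2, without replicate 3 of day 6 and on thinning (adjusted p up to 0.0821). Igfn1, an immunoglobulin-domain protein of the sarcomere that was on no list, fell from 25.8, 32.2, 23.8 and 33.3 CPM to 17.6, 17.2, 16.4 and 15.2 CPM (log2FC -0.77 ± 0.164, adjusted p = 0.000758).

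Genes of excitation-contraction coupling, which release and take up calcium at the sarcoplasmic reticulum, were split, 9 higher and 10 lower of 29 (median log2FC 0.073). Casq1, the calcium buffer of the reticulum in fast muscle, rose from 18.8, 20.6, 23.8 and 24.9 CPM to 82.8, 61.8, 82 and 71.8 CPM (log2FC 1.77 ± 0.107, adjusted p = 2.72e-12). Trdn (triadin), which tethers that buffer to the release channel, rose from 30.9, 37.6, 36.4 and 34.1 CPM to 75.7, 66.2, 42.3 and 66.3 CPM (log2FC 0.86 ± 0.203, adjusted p = 0.00201), with replicate 3 of day 6 closest to day 2. Ryr3, a release channel of developing muscle, fell from 175, 182, 139.9 and 185 CPM to 89.9, 97.8, 84.9 and 79.5 CPM (log2FC -0.95 ± 0.0837, adjusted p = 9.85e-10). Casq1 and Ryr3 did not overlap between the days. The adult channel Ryr1 and the calcium pump Atp2a1 were not called. Ryr1 had 503, 538, 483 and 563 CPM at day 2 and 588, 536, 563 and 580 CPM at day 6 (log2FC 0.12 ± 0.0554, adjusted p = 0.0762). Atp2a1 had 708, 771, 772 and 814 CPM and 768, 582, 779.7 and 651 CPM (log2FC -0.14 ± 0.0701, adjusted p = 0.106).

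Of 16 genes of the neuromuscular synapse, 5 rose and 7 fell. Chrne, the adult ε subunit of the acetylcholine receptor, rose from 0.472, 1.08, 0.431 and 0.92 CPM to 6.96, 4.29, 6.98 and 2.46 CPM (log2FC 2.97 ± 0.302, adjusted p = 5.10e-09). Ache, which breaks down acetylcholine, rose from 6.49, 6.81, 5.84 and 7.36 CPM to 17.2, 14.1, 15.9 and 14.3 CPM (log2FC 1.24 ± 0.113, adjusted p = 1.15e-10). Chrna1, the α subunit, fell slightly, from 834, 889.8, 877 and 881 CPM to 759.5, 719.7, 777 and 764 CPM (log2FC -0.21 ± 0.0422, adjusted p = 0.000192). Day 2 and day 6 did not overlap for any of the 3 genes.

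Muscle energy genes rose more often than they fell, 14 higher and 2 lower of 25 (median log2FC 0.22). Ckmt2, the mitochondrial creatine kinase of striated muscle, rose from 0.708, 0.851, 0.863 and 1.02 CPM to 6.83, 5.53, 4.41 and 6.2 CPM (log2FC 2.8 ± 0.206, adjusted p = 1.13e-12). Ampd1, the muscle AMP deaminase, rose from 2.2, 2.61, 2.2 and 2.35 CPM to 12.2, 8.67, 12 and 9.65 CPM (log2FC 2.2 ± 0.151, adjusted p = 2.30e-13). Mb (myoglobin), the oxygen store of muscle, rose from 185, 203, 215 and 205 CPM to 392, 334, 381 and 329 CPM (log2FC 0.83 ± 0.0711, adjusted p = 1.17e-10). These 3 genes did not overlap between the days. Ckm, the cytosolic creatine kinase, was not called, at 150.3, 177, 196 and 141 CPM and 149.5, 134, 149.6 and 128 CPM (log2FC -0.25 ± 0.105, adjusted p = 0.0601). In the dystrophin complex, 7 of 17 rose and 3 fell, led by Dmd and by Nos1, the muscle nitric oxide synthase, which rose from 24.2 ± 2.47 to 54.2 ± 4.5 CPM (SD, n = 4, log2FC 1.17, adjusted p = 2.81e-13).

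**Figure D2:**
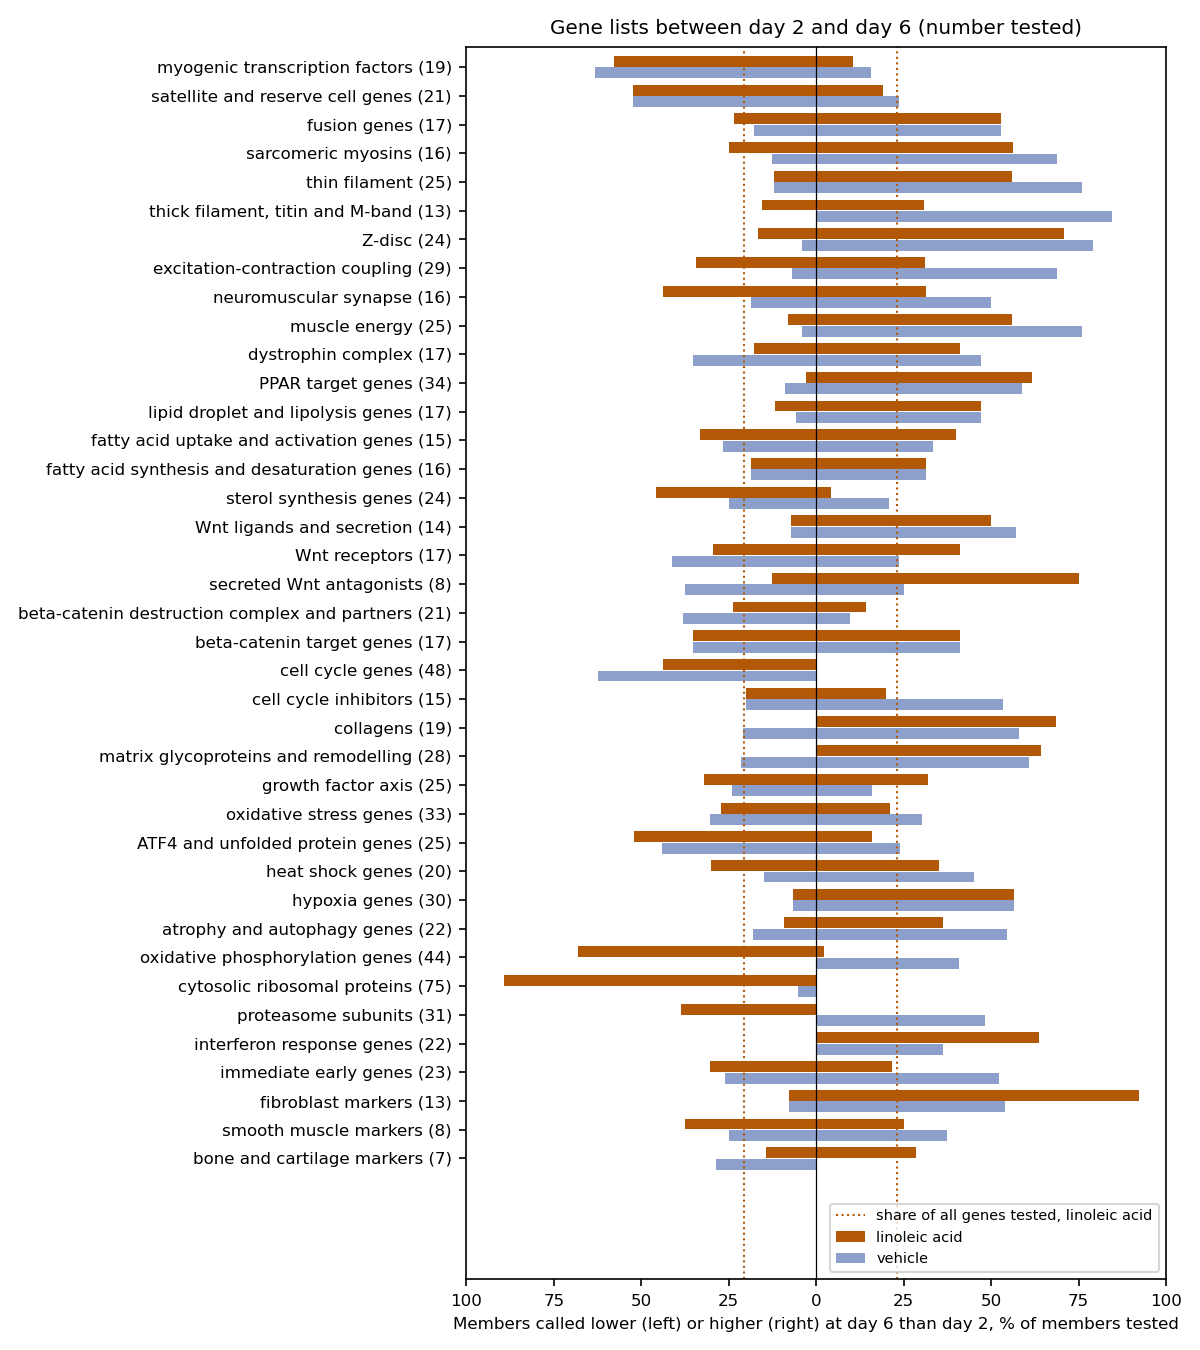
Share of each list's tested members (number in brackets) called lower (left of 0) or higher (right of 0) at day 6 than at day 2, for LA (orange) and vehicle (blue), with dotted lines for the shares of all genes tested with LA, 23.1% higher and 20.7% lower. Ribosomal protein and oxidative phosphorylation genes reach far to the left with LA (67 of 75 and 30 of 44 lower), and fibroblast markers far to the right (12 of 13 higher).

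The transcription factors that drive the programme fell while Mef2c rose. Of 19 myogenic factors, 2 rose and 11 fell (median log2FC -0.2). Myod1, the factor that commits cells to muscle, had 160, 158, 176 and 176 CPM at day 2 and 114, 104, 121 and 113 CPM at day 6 (log2FC -0.57 ± 0.0539, adjusted p = 2.88e-10). Myog (myogenin), which drives terminal differentiation, fell from 867, 878, 1005 and 932 CPM to 722, 632, 725 and 646 CPM (log2FC -0.43 ± 0.0643, adjusted p = 1.83e-06). Myf5, the myoblast factor, fell from 18.4, 15.5, 17.8 and 17 CPM to 9.41, 11.6, 10.9 and 11.3 CPM (log2FC -0.68 ± 0.101, adjusted p = 1.72e-06). All 4 day 6 libraries lay below all 4 day 2 libraries for these 3 factors. Mef2c, a cofactor of MyoD and myogenin at muscle promoters, rose from 194, 226, 192 and 211 CPM to 624, 583, 671 and 610.5 CPM (log2FC 1.6 ± 0.0745, adjusted p = 4.67e-16).

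Genes of satellite and reserve cells fell more often than they rose, 11 lower and 4 higher of 21 (median log2FC -0.19). Pax7, the marker of satellite cells, fell from 32.8, 34.3, 33 and 35 CPM to 24, 19.5, 21.4 and 22.2 CPM (log2FC -0.62 ± 0.081, adjusted p = 1.96e-07). In these bulk libraries, fewer cells of a type and less RNA per cell cannot be told apart. Hey1, a target of Notch signalling, fell from 14.1, 13.8, 16.2 and 15.1 CPM to 6.03, 6, 5.76 and 6.79 CPM (log2FC -1.27 ± 0.105, adjusted p = 1.54e-11). Id2 and Id3, which bind and block the partners of MyoD, fell too. Id2 had 35, 35, 42.8 and 36.6 CPM at day 2 and 18, 19.9, 14.7 and 17.3 CPM at day 6 (log2FC -1.09 ± 0.0967, adjusted p = 1.15e-10), and Id3 fell from 64 ± 9.79 to 34.8 ± 3.64 CPM (SD, n = 4, log2FC -0.89, adjusted p = 4.83e-05). These 4 genes showed no overlap between the days.

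Fusion genes were mixed, 9 higher and 4 lower of 17 (median log2FC 0.14), and the dedicated fusion proteins were among the 4. Mymk (myomaker), which brings membranes to hemifusion, had 471, 468, 492 and 417 CPM at day 2 and 346, 293, 348 and 309 CPM at day 6 (log2FC -0.51 ± 0.0686, adjusted p = 4.44e-07). Mymx (myomerger), which opens the fusion pore, fell from 51, 54.4, 56.1 and 51.9 CPM to 44.4, 36.8, 44.5 and 34.5 CPM (log2FC -0.41 ± 0.0723, adjusted p = 2.22e-05). Neither overlapped between the days. Elmo1, which activates the GTPase Rac together with Dock proteins, rose from 6.84, 5.11, 5.49 and 4.7 CPM to 16.7, 18.5, 18.5 and 16.8 CPM (log2FC 1.63 ± 0.121, adjusted p = 1.39e-12). Bcam, a laminin-binding adhesion molecule, rose from 19.3, 23.3, 21.7 and 25 CPM to 54.1, 52.2, 58.8 and 58.5 CPM (log2FC 1.34 ± 0.0731, adjusted p = 7.98e-16).

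PPAR target genes were mostly higher at day 6. Of 34 tested, 21 rose and 1 fell (median log2FC 0.22). Angptl4 had 82.4, 82.6, 81.8 and 79.7 CPM at day 2 and 302, 261, 306 and 269 CPM at day 6 (log2FC 1.8 ± 0.0558, adjusted p = 5.45e-22). Pdk4, which blocks pyruvate dehydrogenase and so turns cells to fatty acid fuel, rose from 36.2, 28.5, 38.8 and 28.4 CPM to 111, 99.7, 126 and 111 CPM (log2FC 1.74 ± 0.105, adjusted p = 2.74e-12). Cpt1a, which admits fatty acids to mitochondria, rose from 142, 140.5, 141 and 141 CPM to 247, 239.8, 254 and 258 CPM (log2FC 0.82 ± 0.0466, adjusted p = 1.97e-15). The day 2 libraries differed very little for Angptl4 and Cpt1a, and no day 6 library overlapped them. Vldlr, the receptor of very low density lipoprotein, rose from 14, 14.8, 12.8 and 16.8 CPM to 29.6, 31.1, 26.5 and 30.6 CPM (log2FC 1.04 ± 0.102, adjusted p = 8.19e-10). The member that fell was Lpl (lipoprotein lipase), the enzyme that frees fatty acids from lipoproteins, with 62.4, 62.7, 77.4 and 56.3 CPM at day 2 and 26, 42.8, 34.8 and 47.6 CPM at day 6 (log2FC -0.80 ± 0.173, adjusted p = 0.00102). Lpl was also the most variable of these genes, from 26.0 to 47.6 CPM at day 6.

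Lipid droplet and lipolysis genes had 8 higher and 2 lower of 17 (median log2FC 0.23). Plin2, the general droplet coat protein, rose from 101, 104, 108 and 100.4 CPM to 162, 167, 175 and 175 CPM (log2FC 0.71 ± 0.0492, adjusted p = 2.50e-13). Lipe, the hormone-sensitive lipase, rose from 3.74, 4.54, 4.82 and 5.62 CPM to 9.01, 7.24, 7.6 and 8.27 CPM (log2FC 0.82 ± 0.137, adjusted p = 1.06e-05). Both parted the days fully. Plin4, a coat protein of muscle and fat, overlapped, with 17.5, 15.2, 12.6 and 14.4 CPM at day 2 and 17.2, 28.8, 16.8 and 24.8 CPM at day 6 (log2FC 0.55 ± 0.151, adjusted p = 0.0053). Its call was lost when replicate 3 of day 2 was left out together with replicate 4 of day 2 or replicate 4 of day 6, and in a fit of the LA libraries alone (adjusted p up to 0.0745). Aoc3, an amine oxidase of fat and vessels, rose from 10.8, 9.71, 10.7 and 10.9 CPM to 13.7, 14.9, 13.7 and 16.4 CPM (log2FC 0.48 ± 0.116, adjusted p = 0.00114).

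Uptake and activation genes were split, 6 higher and 5 lower of 15, as were genes of fatty acid synthesis and desaturation, 5 higher and 3 lower of 16. Fabp5, a fatty acid carrier, fell from 5.78, 5.9, 8.67 and 4.5 CPM to 3.45, 4.1, 4.41 and 3.74 CPM (log2FC -0.73 ± 0.181, adjusted p = 0.00149). Sterol synthesis genes fell, 11 lower and 1 higher of 24 (median log2FC -0.18). Fdft1 (squalene synthase) fell from 127, 138, 136 and 128 CPM to 86.7, 97.7, 85 and 112 CPM (log2FC -0.47 ± 0.0637, adjusted p = 3.46e-07). Srebf2, which encodes the transcription factor of this pathway, fell from 389, 372, 383 and 410.3 CPM to 289, 292, 301 and 303 CPM (log2FC -0.39 ± 0.0449, adjusted p = 1.59e-08). These falls were small but left no overlap between the days. Tm7sf2, a sterol reductase, fell from 13.7 ± 0.979 to 9.55 ± 0.735 CPM (SD, n = 4, log2FC -0.50, adjusted p = 0.000387).

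The series' title names the Wnt pathway, in which secreted ligands act through Frizzled receptors to keep β-catenin from destruction. Secreted antagonists, which bind ligands or coreceptors, had the highest median of the Wnt lists, with 6 higher and 1 lower of 8 tested (median log2FC 0.78). Sfrp2 had 130.5, 103, 131 and 116 CPM at day 2 and 279, 315, 277 and 286 CPM at day 6 (log2FC 1.26 ± 0.122, adjusted p = 6.05e-08). Sfrp1 rose from 5.15, 5.73, 7.49 and 3.68 CPM to 9.88, 12.7, 10.1 and 15.5 CPM (log2FC 1.06 ± 0.211, adjusted p = 0.000301). Sfrp4 rose from 8.02, 7.78, 8.94 and 8.07 CPM to 14.5, 19.1, 13.6 and 14.6 CPM (log2FC 0.91 ± 0.124, adjusted p = 4.10e-07). These 3 are secreted Frizzled-related proteins, and none overlapped between the days.

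Among ligands and secretion genes, 7 of 14 rose and 1 fell. Wnt11, a ligand of non-canonical signalling, rose from 0.236, 0.454, 0.392 and 0.204 CPM to 1.19, 0.858, 1.72 and 0.886 CPM (log2FC 1.75 ± 0.33, adjusted p = 6.07e-05), at levels near 1 CPM. Wnt4, which was the 1 that fell, had 6.06, 4.65, 5.61 and 4.29 CPM at day 2 and 3.12, 2.86, 3.92 and 3.15 CPM at day 6 (log2FC -0.71 ± 0.173, adjusted p = 0.00115). The Wnt4 call was lost when all libraries were thinned to the smallest total (adjusted p = 0.0555). Porcn, the enzyme that lipidates Wnt ligands, had means of 50.03 and 55.9 CPM (log2FC 0.17 ± 0.0572, adjusted p = 0.0181), a call that was lost without replicate 1 of either day, with library totals alone, in a fit of the LA libraries alone and on thinning (adjusted p up to 0.146). Wnt10a was not called, at 14.5, 13.3, 15.4 and 13.7 CPM and 15.6, 13.1, 14.9 and 9.75 CPM (log2FC -0.093 ± 0.112, adjusted p = 0.522).

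Of 17 receptors, 7 rose and 5 fell, and the number that rose dropped to 4 without replicate 3 of day 2 and replicate 4 of day 6. Lgr5, a receptor of R-spondin and also a β-catenin target, rose from 0.983, 1.31, 1.25 and 1.84 CPM to 6.96, 4.19, 8.21 and 5.51 CPM (log2FC 2.28 ± 0.202, adjusted p = 6.42e-11). Ror2, a coreceptor of non-canonical ligands, rose from 3.38, 3.01, 2.9 and 4.39 CPM to 4.77, 4.58, 5.76 and 5.12 CPM (log2FC 0.60 ± 0.164, adjusted p = 0.00358), a call lost on thinning (adjusted p = 0.17). Fzd3, a Frizzled receptor, fell from 42.5, 45.2, 39.4 and 47.2 CPM to 26.8, 32.1, 24.6 and 33.1 CPM (log2FC -0.57 ± 0.0802, adjusted p = 7.09e-07). Single receptors thus moved in opposite directions. Of 21 genes of the destruction complex and its partners, 3 rose and 5 fell. Ctnnb1 (β-catenin) fell from 789, 787, 799.9 and 803 CPM to 696, 725, 695 and 756 CPM (log2FC -0.15 ± 0.0434, adjusted p = 0.00669), and the call was lost without replicates 3 and 4 of day 2 (adjusted p = 0.0557).

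β-Catenin target genes were split, 7 higher and 6 lower of 17 (median log2FC -0.059). Lef1 and Tcf7 are transcription factors of the pathway and also its targets. Lef1 fell from 16.7, 13.3, 14.2 and 14.1 CPM to 10.01, 10.1, 10.5 and 8.66 CPM (log2FC -0.58 ± 0.104, adjusted p = 3.31e-05). Tcf7 fell from 28.4, 27, 24.2 and 26.9 CPM to 19.2, 18.8, 22.5 and 19.5 CPM (log2FC -0.42 ± 0.0876, adjusted p = 0.000238). Axin2, the target most used as a readout of the pathway, was not called, with 12.1, 9.88, 10.9 and 9.71 CPM at day 2 and 9.48, 9.44, 10.5 and 10.4 CPM at day 6 (log2FC -0.12 ± 0.0974, adjusted p = 0.334). Tnfrsf19, a receptor of the tumour necrosis factor family, rose from 4.37, 5, 4.31 and 4.39 CPM to 12, 9.44, 10.5 and 12.6 CPM (log2FC 1.31 ± 0.117, adjusted p = 7.65e-11). Ccnd1 (cyclin D1) rose from a mean of 65.7 to 79.3 CPM (log2FC 0.27 ± 0.0902, adjusted p = 0.0193), a call that was lost without replicate 4 of day 2 or without replicate 2 or 4 of day 6 (adjusted p up to 0.117).

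Extracellular matrix genes rose together. Of 19 collagens, 13 rose and 0 fell (median log2FC 0.5), and of 28 matrix glycoproteins and remodelling genes, 18 rose and 0 fell (median 0.43). Lum had 1.65, 1.87, 1.88 and 0.716 CPM at day 2 and 14.1, 16.9, 15.2 and 12.9 CPM at day 6 (log2FC 3.16 ± 0.17, adjusted p = 5.95e-16). Dcn (decorin), a proteoglycan that binds collagen fibrils, rose from 118, 122, 119 and 96 CPM to 334, 476, 376 and 395 CPM (log2FC 1.79 ± 0.114, adjusted p = 8.77e-11). Col14a1, a fibril-associated collagen, rose from 8.14, 10.3, 7.14 and 9.4 CPM to 38, 45.5, 33.7 and 38 CPM (log2FC 2.18 ± 0.158, adjusted p = 1.99e-10). For these 3 genes the lowest day 6 library was well above the highest day 2 library. Col1a1, the main fibrillar collagen chain, rose from 641, 535, 544 and 721 CPM to 1212, 856, 1177 and 805 CPM (log2FC 0.73 ± 0.161, adjusted p = 0.00113). Postn (periostin), a matrix protein of growing and injured tissue, rose from 216, 190, 174 and 242 CPM to 691, 432, 578 and 394 CPM (log2FC 1.36 ± 0.241, adjusted p = 0.000157). Col18a1, a basement membrane collagen, rose from 55.3 ± 4.05 to 134 ± 25.9 CPM (SD, n = 4, log2FC 1.28, adjusted p = 7.69e-09). At day 6 replicates 1 and 3 had more Col1a1, Postn and Col18a1 than replicates 2 and 4.

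Fibroblast markers moved with the matrix. Of 13 tested, 12 rose and 1 fell (median log2FC 0.67), and 4 of the 15 listed are themselves collagens or matrix genes of the other lists. The summed level of the 13 was 7749 to 8497 CPM at day 2 and 11780 to 13540 CPM at day 6. Pdgfra, the receptor that marks mesenchymal cells, rose from 30.4, 29.1, 30.5 and 30.1 CPM to 42.5, 46, 43.4 and 47 CPM (log2FC 0.57 ± 0.078, adjusted p = 3.96e-07). Thy1 and Tcf21 had no value analysed here. The part of these markers in the matrix result was not tested.

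Markers of other cell types were low or had no value analysed here for adipocytes, endothelium and leukocytes, and higher for smooth muscle, bone and cartilage. Of 12 adipocyte markers 4 could be tested, while Adipoq, Plin1, Fabp4 and Lep had no value analysed here, and the sum of the 4 was 94.75 to 117 CPM at day 2 and 75.62 to 101.7 CPM at day 6. Of the 4, 2 rose and 1 fell. Of 10 endothelial markers 2 were tested, with a sum of 1.608 to 2.668 CPM at day 2 and 1.28 to 2.651 CPM at day 6. Of 10 macrophage and leukocyte markers 3 were tested, 1 higher and 2 lower, and Ptprc, Adgre1 and C1qa had no value analysed here. Of 8 smooth muscle markers, 2 rose and 3 fell, and their sum was 4708 to 5110 CPM at day 2 and 3769 to 4066 CPM at day 6. Acta2 was among those that fell and Mylk among those that rose, Mylk (a myosin light chain kinase) going from 27.3 ± 1.82 to 51.4 ± 3.08 CPM (SD, n = 4, log2FC 0.92, adjusted p = 2.52e-12). Of 7 bone and cartilage markers, 2 rose and 1 fell, with a sum of 1696 to 1874 CPM at day 2 and 1816 to 2269 CPM at day 6. Phex, a peptidase of osteoblasts, rose from 8.3, 8.8, 8.63 and 7.67 CPM to 19.9, 25, 24 and 34.6 CPM (log2FC 1.61 ± 0.2, adjusted p = 1.48e-06). Omd (osteomodulin), a matrix proteoglycan of bone, was not called, at 51.9, 40.3, 51.7 and 45 CPM and 33.6, 44.3, 28.7 and 48.6 CPM (log2FC -0.29 ± 0.25, adjusted p = 0.369).

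Cell cycle genes fell. None of 48 rose and 21 were lower (median log2FC -0.19), a number that was 15 without replicate 3 of day 2 and ran from 13 to 25 over the alternatives. Ube2c, which marks mitotic proteins for destruction, fell from 16.2, 15.3, 18.6 and 15.4 CPM to 11.1, 11.2, 9.31 and 11.4 CPM (log2FC -0.61 ± 0.105, adjusted p = 1.92e-05). Cdc6, which loads the replicative helicase, fell from 8.18, 9.2, 7.73 and 8.99 CPM to 5.1, 6.29, 5.88 and 5.61 CPM (log2FC -0.57 ± 0.116, adjusted p = 0.000169). Mcm5, a subunit of that helicase, fell from 29.6, 28.4, 30.2 and 28.5 CPM to 19.1, 22.4, 19.4 and 24.2 CPM (log2FC -0.46 ± 0.0886, adjusted p = 7.83e-05). The days did not overlap for these 3 genes. Of 15 cell cycle inhibitors, 3 rose and 3 fell. Cdkn1c (p57), an inhibitor of cyclin-dependent kinases in early muscle differentiation, was among the 10 lowest fold changes of called genes of at least 5 CPM without overlap between the days, from 35.4, 39.7, 38.8 and 35.7 CPM to 8.75, 8.86, 9.68 and 8.76 CPM (log2FC -2.06 ± 0.138, adjusted p = 7.19e-12). Cdkn1a (p21), the inhibitor that MyoD induces, was not called, at 852, 897, 988 and 892 CPM and 1032, 845, 1083 and 891 CPM (log2FC 0.086 ± 0.0668, adjusted p = 0.307). Ccng1 (cyclin G1), a p53 target, rose from 282, 308, 303 and 324 CPM to 501, 464, 493 and 501 CPM (log2FC 0.69 ± 0.0602, adjusted p = 5.36e-11).

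Of the 10 lowest fold changes chosen by the same rule, 3 more are given with values, all of genes outside these lists. Dbh, the enzyme that makes noradrenaline, fell from 5.27, 5.22, 6.31 and 5.01 CPM to 1.06, 1.14, 0.858 and 1.28 CPM (log2FC -2.33 ± 0.228, adjusted p = 6.77e-10). Ripor2 fell from 12.2, 12.1, 9.45 and 12.8 CPM to 3.31, 2.86, 2.7 and 2.85 CPM (log2FC -1.94 ± 0.156, adjusted p = 7.27e-12). Rgs16, a brake on G protein signalling, fell from 19.8, 18.4, 19 and 17.3 CPM to 5.77, 5.62, 3.06 and 5.22 CPM (log2FC -1.89 ± 0.121, adjusted p = 4.60e-14). That the days did not overlap for these 3 was required by the rule. Among risers of this kind, C3 went from 1.1, 0.908, 1.14 and 0.511 CPM to 5.77, 10.01, 6.98 and 10.5 CPM (log2FC 3.06 ± 0.452, adjusted p = 1.76e-05), Ctsc from 0.836 ± 0.0722 to 7.4 ± 1.08 CPM (SD, n = 4, adjusted p = 5.90e-15), and Tigd4 from 0.812 ± 0.354 to 6.07 ± 0.75 CPM (SD, n = 4, adjusted p = 2.09e-11). Ptx3 (pentraxin 3), a secreted pattern recognition protein, rose from 6.25, 7.61, 8.59 and 5.93 CPM to 13.1, 16.1, 12 and 15.5 CPM (log2FC 0.97 ± 0.135, adjusted p = 5.67e-07). Ces1a, a carboxylesterase with close genomic copies whose value is uncertain for that reason, rose from 1.81, 1.93, 2.24 and 1.64 CPM to 5.5, 10.3, 6.37 and 10.2 CPM (log2FC 2.05 ± 0.182, adjusted p = 7.49e-11).

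Growth factor genes were split, 8 higher and 8 lower of 25, with the 2 insulin-like growth factors in opposite directions. Igf2, an autocrine factor of differentiating myoblasts, had 688, 699.7, 712 and 628 CPM at day 2 and 218, 228, 226 and 194 CPM at day 6 (log2FC -1.65 ± 0.0878, adjusted p = 2.00e-13). Igf1 rose from 174, 175, 169 and 165 CPM to 327, 347, 350.3 and 306 CPM (log2FC 0.96 ± 0.0862, adjusted p = 2.66e-09). Igfbp2, a binding protein of both, fell from 54.3, 55.6, 72.6 and 59.5 CPM to 18.1, 21.7, 21.3 and 24 CPM (log2FC -1.52 ± 0.122, adjusted p = 7.11e-10). All 4 libraries of a day shared the direction in each case, without overlap.

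Most ribosomal protein and respiratory chain genes, and some proteasome genes, were lower at day 6. Of 75 genes of cytosolic ribosomal proteins, 67 were lower and 0 higher (median log2FC -0.58). Their summed level was 25450, 26240, 29020 and 18830 CPM at day 2 and 17590 to 18650 CPM at day 6. Replicate 4 of day 2 thus stood near day 6, and replicate 3 stood highest. Without replicate 3 of day 2 the number lower was 53, without replicate 4 it was 72, without both 65, and without replicate 3 of day 2 and replicate 4 of day 6 it was 42. Rps28, a small subunit protein, had 166, 165, 182 and 55.4 CPM at day 2 and 50.04, 52.1, 49.99 and 39.4 CPM at day 6 (log2FC -1.59 ± 0.321, adjusted p = 0.000556). Rplp1, a protein of the ribosomal stalk, had 293, 284, 338 and 108 CPM and 109, 114, 118 and 102 CPM (log2FC -1.22 ± 0.251, adjusted p = 0.000652). In both genes replicate 4 of day 2 lay far below the other day 2 libraries, and for Rplp1 it lay within the day 6 range. Ribosomal protein genes have many near-identical copies in the genome, so that their values are uncertain.

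The list of oxidative phosphorylation genes encoded in the nucleus held 53, of which 44 were tested. Subunits of ATP synthase, Atp5f1a, Atp5f1b and Atp5mc1 among them, had no value analysed here under these symbols. Of the 44, 30 were lower and 1 higher (median log2FC -0.27). The summed level was 6390, 6690, 7286 and 5849 CPM at day 2 and 5443 to 5871 CPM at day 6. The number lower was 21 without replicate 3 of day 2, 33 without replicate 4, and 16 without replicate 3 of day 2 and replicate 4 of day 6. Cox5b, a subunit of cytochrome c oxidase, had 100, 102, 114 and 51.3 CPM at day 2 and 54, 52.6, 58.1 and 47.2 CPM at day 6 (log2FC -0.82 ± 0.2, adjusted p = 0.00277). Ndufa1, a subunit of complex I, had 28.9, 33.8, 31.7 and 13.1 CPM and 15.8, 16.9, 16.9 and 13.8 CPM (log2FC -0.81 ± 0.203, adjusted p = 0.00315), a call lost in a fit of the LA libraries alone (adjusted p = 0.0576). Replicate 4 of day 2 was again the low one of its group. Of 31 proteasome subunits, 12 were lower and 0 higher (median log2FC -0.105), 8 without replicate 3 of day 2 and 4 without that library and replicate 4 of day 6. Psmb5, a catalytic subunit, had 25.3, 24.1, 28.6 and 9.4 CPM and 13.3, 13.2, 14.3 and 12.8 CPM (log2FC -0.77 ± 0.227, adjusted p = 0.0103), a call lost without those 2 libraries and in a fit of the LA libraries alone (adjusted p up to 0.0915). Psmb2, another β subunit, fell from 88.5, 88.2, 90.3 and 80.1 CPM to 66.5, 65.2, 74.4 and 62.4 CPM (log2FC -0.38 ± 0.0987, adjusted p = 0.00348). What sets the low libraries apart was not tested.

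**Figure D3:**
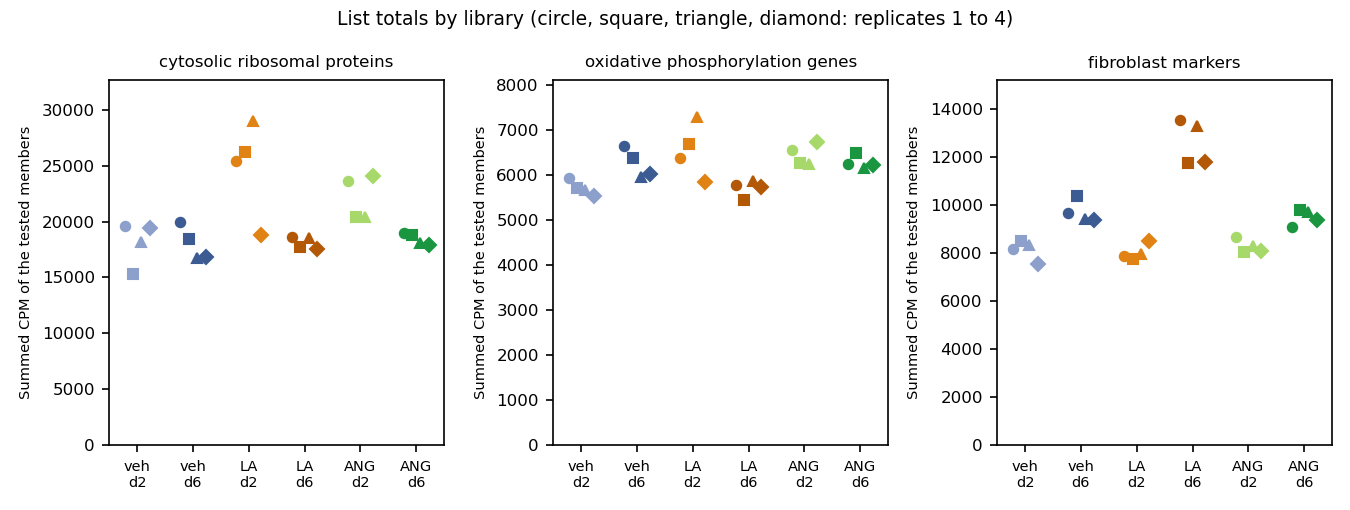
Summed level in CPM (y axis, linear, from 0) of the tested members of 3 lists in each library of the 6 groups (veh, vehicle, LA, linoleic acid, ANG, ANGPTL4, d2 and d6, the days), with marker shape for the replicate number. For cytosolic ribosomal proteins 3 of 4 LA day 2 libraries lay between 25450 and 29020 CPM and the other at 18830 CPM, while fibroblast markers were highest in the LA day 6 libraries.

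Stress genes moved in both directions. Genes of the ATF4 and unfolded protein responses fell more often, 13 lower and 4 higher of 25 (median log2FC -0.19). Mthfd2, the mitochondrial folate enzyme, fell from 109, 113, 118 and 119.7 CPM to 59.5, 69.3, 56.2 and 72.5 CPM (log2FC -0.83 ± 0.0619, adjusted p = 1.42e-12). Phgdh, the first enzyme of serine synthesis, fell from 108, 111, 128 and 118 CPM to 70.3, 71, 68 and 70.1 CPM (log2FC -0.73 ± 0.0775, adjusted p = 9.30e-09). Slc7a5, a leucine transporter, fell from 236, 228, 230.1 and 241 CPM to 137, 141, 130 and 142 CPM (log2FC -0.76 ± 0.0529, adjusted p = 2.68e-13). These 3 fell without overlap. Of 33 oxidative stress genes, 7 rose and 9 fell, and the number lower was 5 without replicate 3 of day 2 and 14 without replicate 4. Slc7a11, the cystine transporter, had 19.6, 18.7, 20.2 and 7.87 CPM at day 2 and 6.69, 5.62, 6.86 and 5.61 CPM at day 6 (log2FC -1.48 ± 0.263, adjusted p = 0.00014), replicate 4 of day 2 being near the day 6 range. Hmox1 (haem oxygenase 1) fell from 55.7, 59, 59.9 and 53.7 CPM to 41.7, 47.5, 46.3 and 43.2 CPM (log2FC -0.36 ± 0.0619, adjusted p = 1.70e-05). Sod3, the extracellular superoxide dismutase, rose from 45.5, 35, 46.8 and 35.5 CPM to 90.4, 67.8, 88.8 and 62.8 CPM (log2FC 0.91 ± 0.143, adjusted p = 3.62e-05).

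Hypoxia genes rose, 17 higher and 2 lower of 30 (median log2FC 0.22). Angptl4 is also on this list. Car9, a membrane carbonic anhydrase, rose from 6.53, 6.7, 5.1 and 4.19 CPM to 21.2, 18.7, 16.9 and 14.2 CPM (log2FC 1.64 ± 0.175, adjusted p = 5.04e-08). Pdk1, like Pdk4 a pyruvate dehydrogenase kinase, rose from 61.3, 65.8, 55.9 and 67.7 CPM to 113, 118, 99.6 and 116 CPM (log2FC 0.84 ± 0.0829, adjusted p = 4.42e-09). Bnip3, a mitophagy receptor, rose from 37, 43.9, 39.6 and 35.5 CPM to 69.6, 76.1, 60.8 and 69.9 CPM (log2FC 0.82 ± 0.0798, adjusted p = 8.28e-10). The 4 genes parted the days without overlap. Interferon response genes rose as well, 14 higher and 0 lower of 22 (median log2FC 0.61). Bst2 (tetherin), which holds budding viruses at the membrane, rose from 4.48, 4.2, 5.53 and 3.48 CPM to 9.08, 11, 9.68 and 7.78 CPM (log2FC 1.03 ± 0.162, adjusted p = 5.00e-06). Ddx58 (RIG-I), a sensor of viral RNA, rose from 19.5, 21.3, 19 and 18.1 CPM to 31.4, 35.1, 31.2 and 30.8 CPM (log2FC 0.72 ± 0.0775, adjusted p = 4.89e-09). Ifit2, an interferon-induced protein, rose from 17.4, 16.5, 17.4 and 16.1 CPM to 25.8, 24.8, 22.2 and 24.1 CPM (log2FC 0.52 ± 0.0738, adjusted p = 7.89e-07).

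Immediate early genes were split, 5 higher and 7 lower of 23. Klf2, a zinc finger factor, fell from 14.4, 12.7, 13.8 and 16.1 CPM to 6.69, 7.91, 6.49 and 8.27 CPM (log2FC -0.94 ± 0.124, adjusted p = 2.22e-07). Nr4a2, an orphan nuclear receptor, rose from 4.25, 4.43, 5.02 and 4.5 CPM to 8.35, 7.62, 8.82 and 8.96 CPM (log2FC 0.88 ± 0.122, adjusted p = 5.50e-07). Of 20 heat shock genes, 7 rose and 6 fell, led by Hspb7, a small heat shock protein of striated muscle, which rose from 12.5, 16.5, 13.1 and 12.5 CPM to 66.5, 57.5, 68 and 58.4 CPM (log2FC 2.19 ± 0.0955, adjusted p = 5.02e-17). Atrophy and autophagy genes had 8 higher and 2 lower of 22, Bnip3 among the risers.

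The same days were compared in cells given vehicle, where 3272 genes were higher at day 6 (25.2%) and 2658 lower (20.5%), and in cells given ANGPTL4, with 2908 higher (22.4%) and 2572 lower (19.8%). Of the 3006 genes higher with LA, 1823 were also higher with vehicle, 60.6% of the LA list and 55.7% of the vehicle list, and 106 were lower there. Of the 2691 lower with LA, 1209 were lower with vehicle, 44.9% of the LA list and 45.5% of the vehicle list, and 130 were higher there. With ANGPTL4 the shared genes were 2033 higher (67.6% and 69.9%) and 1568 lower (58.3% and 61%), with 65 and 24 called in opposite directions. The treatments' libraries are separate, so that these courses share no samples.

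A gene's course differed between LA and vehicle where the difference of the log2 fold changes, LA minus vehicle, was called in the same fit. It was called for 2554 genes, 1128 with a positive difference (8.68%) and 1426 with a negative one (11%), and the median over all genes was -0.018. Which direction was in the majority depended on the processing, with 1306 positive and 1225 negative under DESeq2 size factors, 1291 and 1197 with DESeq2, 1198 and 1114 when the compared groups alone were fitted, and 914 and 800 on thinned counts. The number called in all was 1883 without replicate 3 of day 2 and 1572 without that library and replicate 4 of day 6. The 436 genes that rose at least 2-fold with vehicle had a median log2FC of 1.45 with vehicle and 1.19 with LA, and 368 of them were called higher with LA. The 332 that fell at least 2-fold with vehicle had medians of -1.4 and -0.85, and 170 of them were called lower with LA. Both sets were chosen on the vehicle values, so that these numbers are a description and no comparison of the courses.

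**Figure D4:**
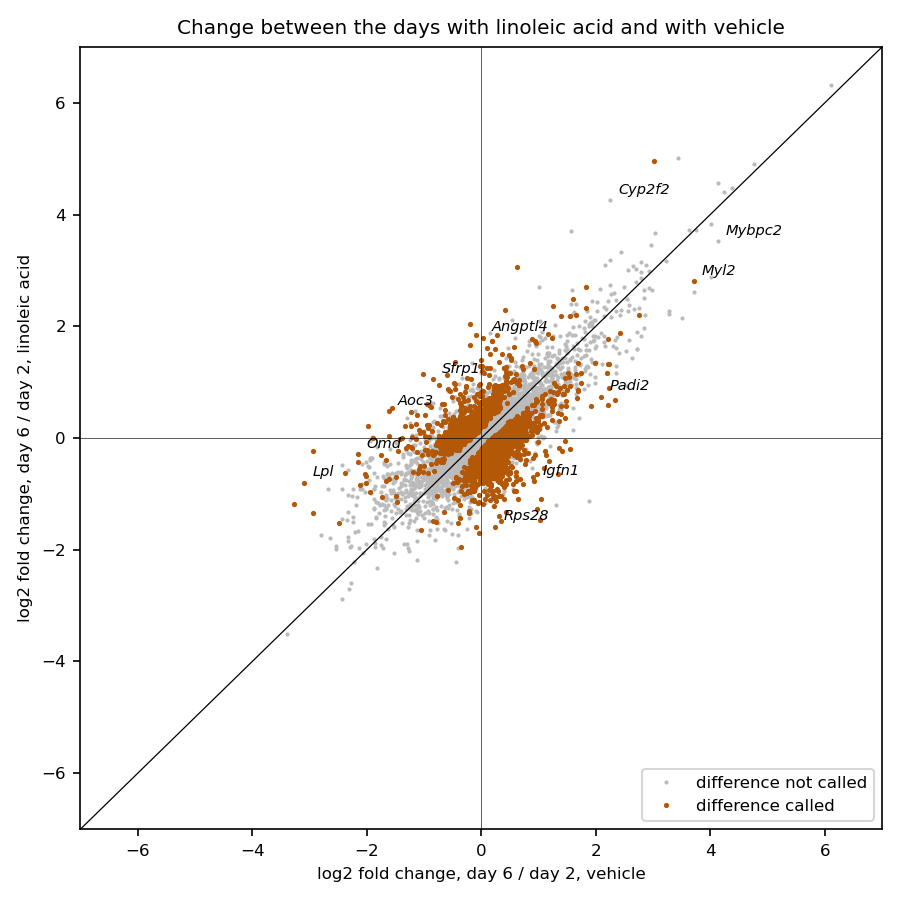
Log2 fold change of day 6 over day 2 with vehicle (x axis) and with LA (y axis) for the 12994 genes tested, with genes whose 2 changes differed at an adjusted p under 0.05 in orange, the others in grey, and a diagonal of equal change. Lpl, Aoc3, Sfrp1 and Angptl4 lie above the diagonal and Padi2, Igfn1, Myl2 and Rps28 below it.

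For many contractile genes the difference, LA minus vehicle, was negative. Some rose less with LA, while Actc1 fell under both but more with LA (log2FC -0.72 with LA and -0.20 with vehicle). The difference was negative in 9 of 16 sarcomeric myosins (5 to 10 over the alternatives, median difference -0.35), 11 of 25 thin filament genes (7 to 13, -0.26), and 10 of 13 genes of the thick filament, titin and the M-band (6 to 11, -0.32). It was also negative in 13 of 24 Z-disc genes (10 to 15, -0.32), 17 of 29 coupling genes (fewer, 13 to 16, over the alternatives, -0.39) and 12 of 25 muscle energy genes (7 to 12, -0.36). It was positive in 1 member of the 6 lists, Mybpc1 (difference 0.49 ± 0.132, adjusted p = 0.0111). Acta1 reached 2905 CPM at day 6 with LA and 3922 CPM with vehicle, from day 2 means of 2519 and 2499.9 CPM (difference -0.44 ± 0.0726, adjusted p = 8.02e-05). Tcap rose by log2FC 1.32 with LA and 2.22 with vehicle (difference -0.91 ± 0.139, adjusted p = 5.29e-05). Ryr1 had 567 CPM at day 6 with LA and 853 CPM with vehicle (difference -0.50 ± 0.0784, adjusted p = 5.29e-05). Igfn1 fell with LA and rose with vehicle, log2FC -0.77 and 0.92 (difference -1.69 ± 0.228, adjusted p = 5.29e-05). For Mybpc2, Myh4, Dmd and Myot the difference was not called, with adjusted p of 0.0864, 0.483, 0.295 and 0.313.

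Regulators and fusion genes differed in both directions, with 2 positive and 5 negative of 19 myogenic factors and 3 positive and 7 negative of 17 fusion genes. Myod1 fell with both, at log2FC -0.57 with LA and -0.18 with vehicle (difference -0.39 ± 0.0761, adjusted p = 0.00061). Myog had a difference of -0.37 ± 0.0909 (adjusted p = 0.00456), which was not called without replicates 3 and 4 of day 2 (adjusted p up to 0.0624). Mymk fell with LA, and was not called with vehicle (log2FC 0.16, adjusted p = 0.0608), with a difference of -0.67 ± 0.0967 (adjusted p = 2.48e-05). Mymx fell with LA and rose with vehicle (difference -0.68 ± 0.103, adjusted p = 3.65e-05). Elmo1 rose more with LA, at log2FC 1.63 against 0.57 (difference 1.06 ± 0.189, adjusted p = 0.000213). Pax7 fell less with LA, at log2FC -0.62 against -1.1 (difference 0.48 ± 0.119, adjusted p = 0.00491). Cell cycle genes had a positive difference in 9 of 48 (4 to 12 over the alternatives, median difference 0.17) and a negative one in 0. Cdkn1a, not called with LA, rose by log2FC 0.78 with vehicle (difference -0.70 ± 0.0946, adjusted p = 1.12e-05).

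Lipid genes differed from the vehicle course in both directions. Of the 34 PPAR targets, 10 had a positive difference and 1 a negative one (median 0.063). With vehicle, 20 of the 34 were higher and 3 lower at day 6 (median log2FC 0.19), near the 21 and 1 with LA. Droplet and lipolysis genes had 3 positive and 2 negative of 17, uptake and activation genes 2 and 4 of 15, fatty acid synthesis genes 2 and 3 of 16, and sterol synthesis genes 0 and 8 of 24. The largest positive differences in these lists were in Lpl and Plin4. Lpl fell to 3.76, 5.28, 8.33 and 6.84 CPM at day 6 with vehicle, log2FC -3.09, below every LA library of that day (difference 2.29 ± 0.298, adjusted p = 5.19e-05). Plin4 rose with LA and fell with vehicle, log2FC 0.55 and -1.55 (difference 2.1 ± 0.268, adjusted p = 1.53e-05). Aoc3 did likewise, with log2FC 0.48 and -1.61 (difference 2.08 ± 0.201, adjusted p = 2.73e-08). Angptl4 had 18.6, 21.8, 18.8 and 21.8 CPM at day 2 and 20.4, 21.9, 20.2 and 20.6 CPM at day 6 with vehicle, below every LA library of either day (difference 1.77 ± 0.0929, adjusted p = 5.68e-15). For Cpt1a and Pdk4 the differences were 1.11 ± 0.0684 and 1.56 ± 0.155 (adjusted p = 3.19e-13 and 7.53e-07). The summed adipocyte markers, Lpl and Plin4 among them, were 27.98 to 36.24 CPM at day 6 with vehicle.

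Among Wnt genes, 4 of 8 secreted antagonists had a positive difference and 0 a negative one (median 0.75). Sfrp1 rose with LA and fell with vehicle, log2FC 1.06 and -0.84 (difference 1.89 ± 0.344, adjusted p = 0.00061). Sfrp2 and Sfrp4 had differences of 0.83 ± 0.172 and 0.79 ± 0.192 (adjusted p = 0.00244 and 0.00428). Wnt10a and Porcn rose with vehicle, by log2FC 0.57 and 0.89, and less or not with LA (differences -0.66 ± 0.155 and -0.72 ± 0.0813, adjusted p = 0.00311 and 4.94e-07). For Axin2 and Lef1 the difference was not called (adjusted p = 0.186 and 0.42).

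Among matrix genes, the difference was positive in 11 of 19 collagens (7 to 11 over the alternatives, median difference 0.36). It was positive in 14 of 28 matrix glycoproteins and remodelling genes (8 to 14, 0.25) and negative in 1. With vehicle, 11 collagens rose and 4 fell, and 17 genes of the second list rose and 6 fell. A positive difference was thus not always a larger rise. Fibroblast markers had 5 positive and 0 negative of 13, with a summed level of 9397 to 10400 CPM at day 6 with vehicle. Pdgfra rose with LA and fell with vehicle (difference 0.78 ± 0.114, adjusted p = 2.48e-05). Omd fell with vehicle (log2FC -2.16) and was not called with LA (difference 1.87 ± 0.397, adjusted p = 0.00326). Igf1 rose with LA only of the 2 (difference 0.99 ± 0.122, adjusted p = 1.13e-05). The part of the marker levels in the matrix result was not tested.

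Ribosomal protein genes had a negative difference in 39 of 75, and 20 without replicate 3 of day 2, 54 without replicate 4 and 16 without replicate 3 of day 2 and replicate 4 of day 6. With vehicle, 4 of the 75 fell and 0 rose, and their sum at day 2 was 15270 to 19590 CPM, below 3 of the 4 LA libraries of that day. Oxidative phosphorylation genes had 33 of 44 negative, and 15 to 33 over the alternatives. With vehicle 18 of these 44 rose and 0 fell. For Rps28 the difference was -1.83 ± 0.464 (adjusted p = 0.00996) and for Cox5b -1.18 ± 0.285 (adjusted p = 0.00724). Both genes were high in 3 LA libraries of day 2 and near the day 6 level in the other, replicate 4.

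Against the ANGPTL4 course, 901 genes differed, 485 with a positive difference of LA minus ANGPTL4 (3.73%) and 416 with a negative one (3.2%), or 642 and 298 when counts were scaled by library totals alone. The median over all genes was -0.0066. Both sets of differences, from vehicle and from ANGPTL4, use the same 8 LA libraries, so that they are not independent. Thin filament genes had 13 of 25 negative (8 to 16 over the alternatives) and Z-disc genes 14 of 24 (7 to 15), with 0 positive in both lists. The lowest of these counts, 8 and 7, came without replicates 3 and 4 of LA day 2. Myl2 rose by log2FC 2.81 with LA and 4.34 with ANGPTL4 (difference -1.53 ± 0.241, adjusted p = 8.53e-05). Myh2 had a difference of -0.98 ± 0.171 (adjusted p = 0.000912). Mef2c rose under both, but less with LA (difference -0.42 ± 0.103, adjusted p = 0.0104). Of the PPAR targets, 9 of 34 had a positive difference and 0 a negative one. Lpl had a difference of 2.63 ± 0.32 (adjusted p = 4.30e-05) and Angptl4 one of 1.97 ± 0.0942 (adjusted p = 3.30e-16). Of the secreted Wnt antagonists 6 of 8 were positive, Sfrp1 with 2.32 ± 0.366 (adjusted p = 0.000286). Of the 75 ribosomal protein genes, 23 fell and 0 rose in the ANGPTL4 course, and the median difference, LA minus ANGPTL4, was -0.26. The difference was called in 0 of the 75 by edgeR's test, with 10 negative at an unadjusted p under 0.05, and in 1 by DESeq2. Without replicate 4 of LA day 2 it was called negative in 20, and without replicates 3 and 4 in 11. Oxidative phosphorylation genes had 4 of 44 negative, 19 without replicate 4 of LA day 2, 14 without replicates 3 and 4, and 1 without replicate 3.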

How the data were processed

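RNA of C2C12 cells was sequenced from transcript ends (QuantSeq 3′), per the labels' protocols. The deposited values were raw counts per gene symbol for 14693 genes. Trimmomatic, STAR 2.7.1a, HTSeq 0.9.1, DESeq2 and the build mm39 were named, per the submitters' processing notes, and their settings, strand and multimapping rules were not given in the sources used here. Values of genes with near-identical copies, overlapping genes and antisense genes are therefore uncertain.

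edgeR's filterByExpr left 12994 genes and removed 1699. All 24 libraries were fitted in 1 model of group means with TMM factors and edgeR 4.0.16's robust quasi-likelihood method in R 4.3.3 (18 residual degrees of freedom, common biological coefficient of variation 6.51%). Adjusted p-values come from this fit unless an alternative is named beside them, with the Benjamini-Hochberg correction taken over the whole table of tested genes. SE is approximate, the log2 fold change over the square root of F. CPM uses TMM-scaled totals, and log2 CPM a prior count of 2. Differences between courses are interaction contrasts. The depth per library limits the precision of low values.

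The members, the 42 lists and the naming rule were chosen with earlier results of these data known. The rule took a roster of muscle, lipid, Wnt and growth genes, the 10 highest and 10 lowest called changes of at least 5 CPM, and up to 3 called members of each list, from which a selection was printed. Igfn1, Ptx3, Ces1a, Padi2, Ctrb1, Aoc3, Omd, Tcap, Csrp3, Pdgfra and Porcn were named by the rule only in the comparison with vehicle or ANGPTL4. Alternatives were DESeq2 size factors, library totals, other filters, limma-voom 3.58.1, DESeq2 1.42.0, the replicate block, the compared groups alone, thinning, and libraries left out. The ranges of list counts over the alternatives do not cover the other filters.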

Additional observations from a re-analysis of the deposited data

Results flagged for a closer look

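In 13 of 270 groups of 4 libraries examined, 1 library lay far from the other 3, and chance gives about 1 in 20. At day 2 with LA these were 6399 CPM of Ttn in replicate 3, 44.2 CPM of Porcn and 20.57 CPM of Nos1 in replicate 1, 16.52 CPM of Hspb7 and 4.995 CPM of Tnfrsf19 in replicate 2, and 95.98 CPM of Dcn, 7.87 CPM of Slc7a11 and 55.4 CPM of Rps28 in replicate 4. At day 6 with LA they were 47.47 CPM of Nos1 and 35.07 CPM of Ddx58 in replicate 2, 9.679 CPM of Cdkn1c and 9.312 CPM of Ube2c in replicate 3, and 39.38 CPM of Rps28 in replicate 4.

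The course under LA differed from that under vehicle by an interaction test in the following genes, a selection of those called. Each is given as the log2 difference LA minus vehicle. For muscle genes it was -0.90 for Myl2, -0.44 for Acta1, -0.52 for Actc1, -0.91 for Tcap, -0.52 for Ckm, -0.62 for Atp2a1, -0.50 for Ryr1, -0.39 for Chrna1 and -1.69 for Igfn1. The difference was also called for Csrp3 (-0.63), Myh2 (-0.54), Myh3 (-0.26) and Mybpc1 (0.49). For regulators and fusion genes it was -0.39 for Myod1, -0.37 for Myog, 0.48 for Pax7, -0.67 for Mymk, -0.68 for Mymx, 1.06 for Elmo1 and -0.70 for Cdkn1a. For lipid genes it was 1.77 for Angptl4, 1.11 for Cpt1a, 1.56 for Pdk4, 0.54 for Plin2, 2.1 for Plin4, 2.29 for Lpl, 2.08 for Aoc3, 0.83 for Lipe and 2.25 for Ces1a. For Wnt genes it was 1.89 for Sfrp1, 0.83 for Sfrp2, 0.79 for Sfrp4, -0.66 for Wnt10a and -0.72 for Porcn. For growth and matrix genes it was 1.87 for Omd, 0.78 for Pdgfra, -0.60 for Igf2, 0.99 for Igf1 and 0.97 for Igfbp2. It was -1.82 for Slc7a11, -1.83 for Rps28, -1.18 for Cox5b, -1.64 for Ctrb1 (chymotrypsinogen) and -1.35 for Padi2 (an arginine deiminase).

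Between LA and ANGPTL4 the log2 difference of the courses, by the same kind of test, was -1.53 for Myl2, -0.98 for Myh2, -0.51 for Ryr1, -1.61 for Igfn1, -0.42 for Mef2c and -1.41 for Padi2. It was positive for the others given here, 1.97 for Angptl4, 0.98 for Cpt1a, 1.5 for Pdk4, 0.63 for Plin2, 2.24 for Plin4, 2.63 for Lpl, 1.98 for Aoc3, 2.32 for Sfrp1, 2.0 for Omd and 2.29 for Ces1a. These genes are a selection of those called. Among contractile genes the difference was also called for Neb (-0.74), Tcap (-0.71), Tnnt3 (-0.46), Actc1 (-0.41), Myh7 (-0.39), Myh3 (-0.32) and Acta1 (-0.29). In the myosin, thin filament and Z-disc lists it was called positive for 0 members.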

How the results depend on the processing

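Leaving out 1 library at a time gave 5047 to 5709 genes called for LA day 6 against day 2, 1864 to 2831 for LA minus vehicle and 606 to 1109 for LA minus ANGPTL4. Without replicate 3 of LA day 2 and replicate 4 of LA day 6 together, an alternative chosen after seeing the data, the counts were 4689, 1572 and 663. When all libraries were thinned to the smallest total they were 4449, 1714 and 636. With the replicate number as a block the counts were 5598, 2377 and 829. The same replicate numbers at day 2 and day 6 of LA deviated together only weakly (correlations -0.0093 to 0.144), and 1 of 4 libraries correlated best with its own number. With 4 libraries a group, these values cannot show whether a number also stands for a shared culture or batch. Of 118 genes of the naming rule called between the days and followed through the alternatives, 108 kept the call in every alternative run, 10 lost it in at least 1, and 0 changed sign. Those 10 were Csrp3, Plin4, Ctnnb1, Wnt4, Porcn, Ccnd1, Ndufa1, Psmb5, Ror2 and Fabp5. Of 11 not called, 6 were called in at least 1 alternative. Wnt10a, which was not called, had log2FC values from -0.20 to 0.022 when 1 library was left out, positive without replicate 4 of LA day 6, and 0.0705 without that library and replicate 3 of day 2, and the cause was not tested. Only a selection of the called differences between courses was followed through the alternatives, 40 from vehicle, without Mybpc1, and 16 from ANGPTL4. Of the 40 differences from vehicle 37 kept the call throughout and Myl2, Ckm and Myog lost it in 2 or 3 alternatives. All 16 followed differences from ANGPTL4 kept theirs. Between the days under LA, the number lower ran over the alternatives from 4 to 8 around 5 for the destruction complex, 3 to 6 around 5 for Wnt receptors and 3 to 5 around 3 for the dystrophin complex, and the number higher from 3 to 5 around 5 for fatty acid synthesis. Depth limits genes near 1 CPM, such as Wnt11 and Chrne.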
